A study of Homo sapiens with 2 samples.

Results

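The integrin subunits described here are the 10 genes ITGA2, ITGA3, ITGA5, ITGA6, ITGAV, ITGB1, ITGB4, ITGB5, ITGB6 and ITGB8, chosen by name through the RefSeq accession of each probe, out of 21614 genes named on the array. They comprised 5 alpha and 5 beta chains, measured with 11 probes in 29 spots. RNA came from HCT116, an established human colon cancer cell line. Cells of both groups carried the vector pEB and had been kept in blasticidin for 2 weeks. In the group called HOXA5 short the vector held HOXA5 short RNA, a non-coding transcript of the HOXA5 locus, and in the group called mock it was the control vector. Each group was 1 array, and the labels do not say whether the cells were a pool or a single clone, so no difference was tested and no p-value is given.

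Integrins are adhesion receptors made of 1 alpha and 1 beta chain, which tie the extracellular matrix to the actin or keratin cytoskeleton. The alpha chain largely sets the ligand: collagen for the chain of ITGA2, laminin for those of ITGA3 and ITGA6, fibronectin for that of ITGA5, and vitronectin and other ligands with an arginine-glycine-aspartate motif for that of ITGAV. ITGB1 encodes the beta chain shared by most of these receptors, and ITGB4 encodes the partner of the ITGA6 chain in the hemidesmosome, the junction that anchors epithelial cells to the basement membrane. The chains of ITGB5, ITGB6 and ITGB8 pair with that of ITGAV, and the receptors with ITGB6 and ITGB8 release transforming growth factor beta from its latent form.

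The promoters of ITGAV and ITGB1 are shown because these were the members printed in 10 spots each, and that of ITGB6 because its signal was not well above background on either array. Each sequence is the 250 bases before the annotated start that lies farthest upstream (RefSeq, GRCh38.p14), read 5′ to 3′ on the strand of the gene, with CG dinucleotides in capitals. They lie at chr2:186589806-186590055 on the plus strand, chr10:32958231-32958480 on the minus strand and chr2:160200273-160200522 on the minus strand.
ITGAV: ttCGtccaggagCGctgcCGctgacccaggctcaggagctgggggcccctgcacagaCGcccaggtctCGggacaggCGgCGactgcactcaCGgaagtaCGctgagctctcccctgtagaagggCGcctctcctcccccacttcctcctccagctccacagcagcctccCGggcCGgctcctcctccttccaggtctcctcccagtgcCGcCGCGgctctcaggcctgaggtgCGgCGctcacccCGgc
ITGB1: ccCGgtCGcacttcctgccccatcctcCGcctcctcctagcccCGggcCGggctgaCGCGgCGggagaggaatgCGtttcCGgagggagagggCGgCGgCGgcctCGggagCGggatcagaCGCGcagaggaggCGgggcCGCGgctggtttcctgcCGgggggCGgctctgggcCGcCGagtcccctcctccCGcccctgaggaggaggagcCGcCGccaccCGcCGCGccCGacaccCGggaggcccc
ITGB6: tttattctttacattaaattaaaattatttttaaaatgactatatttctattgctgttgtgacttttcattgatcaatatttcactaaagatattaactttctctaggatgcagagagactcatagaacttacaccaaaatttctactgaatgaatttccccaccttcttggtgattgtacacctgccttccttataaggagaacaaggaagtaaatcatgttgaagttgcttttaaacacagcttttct

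The ITGAV window held 18 CG dinucleotides and the ITGB1 window held 32. The ITGB6 window held 0, and 6.38% of 27305 promoter windows of the same length held none, against a median of 10. Such windows were matched for 8 members. Being rich in CG did not separate the measured from the unmeasured subunits, since the ITGA2 window held 26 and the ITGB8 window 21 and neither gene was above background. The GC box, GGGCGG on either strand, was found 3 times before ITGB1 and was not found before ITGAV. It was found in the windows of 5 of the 8 members and in 42.2% of all windows. These are descriptions of the sequence and say nothing of which factors were bound.

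The array measured HOXA5 first as a check of the labels. The HOXA5 probe (NM_019102) gave a processed signal, the scanner intensity after background correction, of 39.4 ± 4.32 (error given by the scanner software) in mock and 346 ± 34.6 in HOXA5 short cells. After each array was scaled to the 75th percentile of its probes, this was 7.11-fold higher in the HOXA5 short cells. The probe cannot be told to separate HOXA5 short RNA from HOXA5 mRNA here. All 7 epithelial markers were detected on both arrays, with a summed signal of 68607 in mock and 81541 in HOXA5 short cells. CLDN4, a tight junction gene among them, stood at a log2 difference of -1.097, HOXA5 short minus mock, and 7 of the 18 measured spots around it differed 2-fold or more. Of 6 leukocyte and 7 fibroblast and endothelial markers, 0 were detected on both arrays, and CD14 was at the detection limit on 1. Their summed signals were 26.6 and 15.7 in mock and 27.3 and 16.4 in HOXA5 short cells.

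A gene was compared when at least 1 of its probes was well above background, by the flag of the scanner software, on both arrays. This held for 11994 genes (55.5% of those named) and for 7 of the 10 integrin subunits: 4 alpha and 3 beta chains. Of the 7, 0 were 2-fold or more higher or lower on the HOXA5 short array. The same limits were passed by 0.642% (higher) and 0.258% (lower) of all genes compared. At 1.5-fold, the count of members was again 0, beside 4.38% of all genes.

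The log2 differences of the 7 subunits, HOXA5 short minus mock, ran from -0.30 to 0.08 with a median of -0.13. The median of all genes was -0.02 and their SD was 0.29. All 4 alpha chains were below 0, as were 54.5% of all genes compared, and they ran from -0.30 to -0.13 with a median of -0.22. The 3 beta chains lay between -0.04 and 0.08 with a median of 0.04, so the 2 kinds of chain did not overlap. The chains nearest each other, ITGA3 (-0.13) and ITGB4 (-0.04), rest on 1 spot each. Their distance was smaller than the SD of the difference for a single spot (0.26), so the split between the kinds is within measurement error. In bulk RNA, fewer cells with a transcript and less transcript per cell cannot be told apart.

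**Figure D1:**
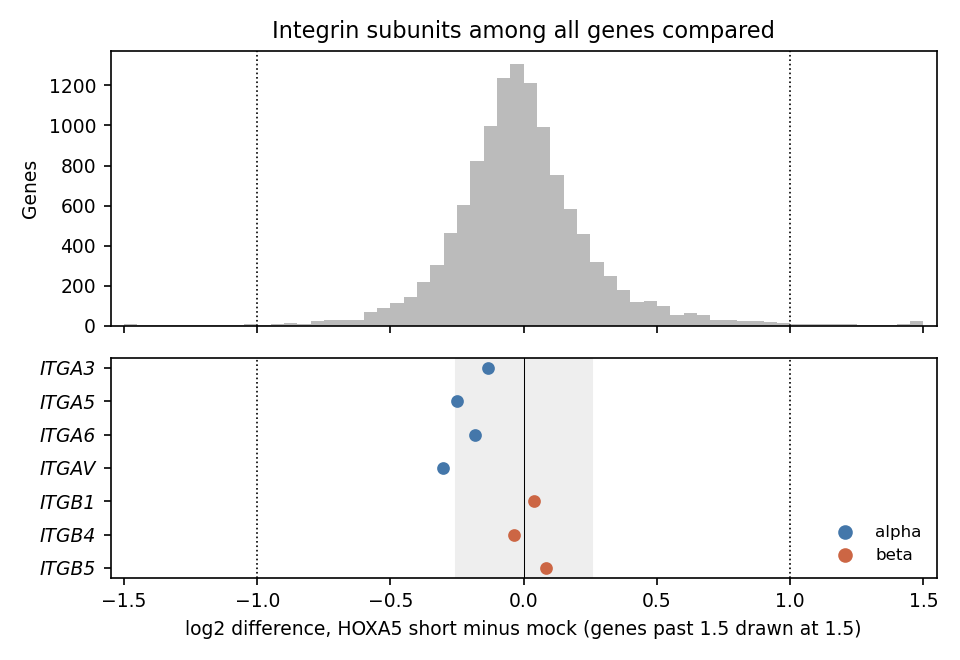
The upper panel counts genes by log2 difference, HOXA5 short minus mock, and the lower panel places each of the 7 integrin subunits on the same axis. Dotted lines mark 2-fold, and the shaded band is the SD of a single spot (0.26) on each side of 0. The 4 alpha chains sit from -0.30 to -0.13 and the 3 beta chains from -0.04 to 0.08.

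The size of these differences was set against the error of 1 spot. In 593 probes printed in several spots and well measured on both arrays, the SD of the difference for a single spot was 0.26, spots flagged as outliers included, and 0.19 without them. It was 0.24 for probes with signals from 50 to 200 and 0.24 above 200. Of the 7 subunits, 6 lay within 0.26 of 0 and ITGAV lay outside. With the SD of 0.19, 5 lay within it, and ITGA5 lay outside as well. Both SDs are those of 1 spot, while ITGAV and ITGB1 are means over 10 spots and ITGA6 over 2 probes. These counts therefore do not set each value against its own error. For 5 of the subunits the value rests on 1 or 2 spots, so only ITGAV and ITGB1 carry a spread of their own. These spots are copies on 1 array and hold no spread between cultures.

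ITGAV (NM_002210), the alpha chain that pairs with ITGB1, ITGB5, ITGB6 and ITGB8, gave nearly the same signal on both arrays before scaling. Its 10 spots ran from 171 to 250 with a median of 229 in mock, and from 202 to 239 with a median of 226 in HOXA5 short cells. The 75th percentile of all probes, to which the arrays were scaled, was 35.7 in mock and 44.0 in HOXA5 short cells. ITGAV thus stood lower relative to the other genes, while its intensity itself overlapped between the arrays. The scaled difference was -0.30 ± 0.18 (SD, n = 10 spots), or 1.23-fold lower, with a median of -0.34. Among all genes compared, 8.96% had a difference as low or lower, and among the 593 probes printed in several spots 2.70% had a median as low or lower.

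Of the 10 ITGAV spots, 9 were below 0 and 1 was above. The exception, at 0.18, had the lowest mock signal (171) and lay in an uneven zone of the grid, where 3 of the 28 measured spots around it differed 2-fold or more. Without it, the difference was -0.36 ± 0.07 (SD, n = 9 spots), with a range from -0.46 to -0.26. The mean difference of the spots around each ITGAV spot ran from -0.14 to 0.10. Subtracting that local mean from all 10 spots left -0.31 ± 0.17.

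ITGB1 (NM_133376), the shared beta chain, differed little once scaled. Its 10 spots ran from 54.5 to 80.7 with a median of 72.8 in mock, and from 80.2 to 106 with a median of 89.7 in HOXA5 short cells. All 10 spots were brighter on the HOXA5 short array, as was the array as a whole. The scaled difference was 0.04 ± 0.20 (SD, n = 10 spots), with a median of -0.01 and 5 spots on each side of 0. The highest spot, at 0.42, lay where the surrounding spots averaged 0.35.

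The 2 probes can be set against each other within the arrays, where the scaling of an array cancels. ITGB1 exceeded ITGAV by 0.34 ± 0.08 (SE over spots) in its log2 difference, and by 0.39 ± 0.07 without the ITGAV spot in the uneven zone. The lowest ITGB1 spot was at -0.21, and 9 of the 10 ITGAV spots were below it. The difference between the 2 probes was therefore larger than the spread over their spots, and whether it would return in another culture was not measured. Spots of 1 probe do not hold the spread between probes. The medians of the 593 probes printed in several spots had an SD of 0.15, and the medians of these 2 probes lay 0.32 apart. The distance between 2 probes varies more than the median of 1 probe, so 0.15 is not the spread of such distances. How often 2 of the 593 probes lie as far apart was not computed. The difference of ITGB1 and ITGAV ranged from 0.19 with another background correction (normexp) to 0.39 over the settings tried.

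**Figure D2:**
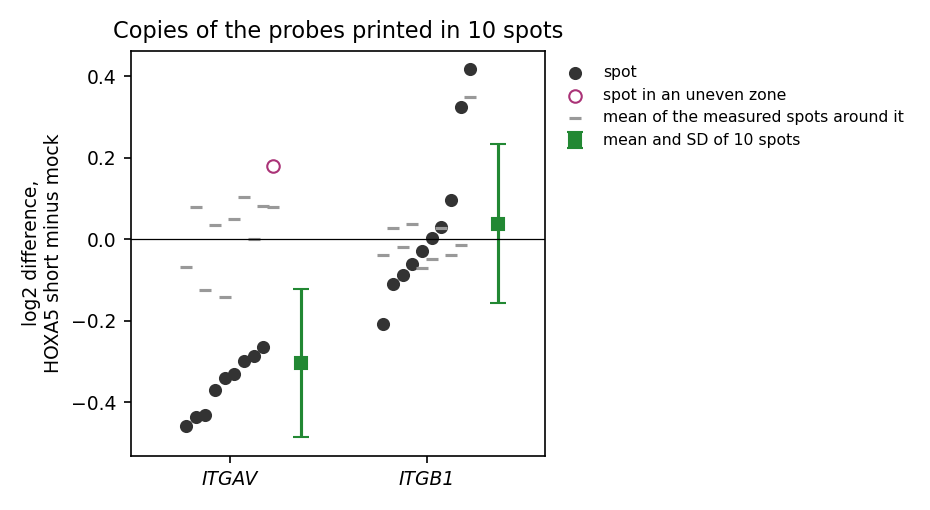
Each point is 1 spot of the ITGAV or ITGB1 probe, with the log2 difference, HOXA5 short minus mock, on the y axis, and the square with its bar is the mean and SD of 10 spots. Grey dashes give the mean difference of the measured spots around each one. The open circle is the ITGAV spot in an uneven zone (0.18), and the other 9 ITGAV spots lie below every ITGB1 spot.

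The laminin-binding alpha chains were measured in fewer spots. ITGA3 (NM_002204) gave 522 ± 52.2 in mock and 586 ± 58.7 in HOXA5 short cells (scanner error, 1 spot), a scaled difference of -0.13. ITGA6 (NM_000210) had 2 probes, which gave 181 and 138 in mock and 202 and 147 in HOXA5 short cells. Their scaled differences were -0.14 and -0.22, with a mean of -0.18, so both probes of ITGA6 pointed the same way. For each of the 2 genes the scaled difference was within the SD of a single spot, which is not the SD of a mean over 2 probes as for ITGA6. ITGA3 stood close to the spots around it on the grid, where the 24 measured ones averaged -0.12. After subtraction of the local mean ITGA3 stood at -0.01, while ITGA6 stood at -0.22. Whether the position on the grid set these values was not tested.

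ITGA5 (NM_002205), the fibronectin receptor chain, gave 72.3 ± 7.43 in mock and 75.02 ± 7.73 in HOXA5 short cells. Its scaled difference of -0.25 was the lowest after ITGAV, and 13.1% of genes were as low or lower. The 28 measured spots around it averaged -0.24, and relative to them it stood at -0.01. The low value of ITGA5 was thus shared by its neighbourhood on the grid.

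The remaining beta chains that were detected were close to the median of all genes. ITGB4 (NM_000213), the hemidesmosome chain, gave 1815 ± 182 in mock and 2182 ± 218 in HOXA5 short cells, a scaled difference of -0.04. ITGB5 (NM_002213), a partner of ITGAV, gave 198 ± 19.8 and 259 ± 25.9, a scaled difference of 0.08. Both differences were below the SD of a single spot.

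Neither array detected ITGA2, ITGB6 or ITGB8 well above background, and no fold change is given for them. ITGA2 (NM_002203), the collagen receptor chain, gave 1.94 ± 1.94 in mock and 2.53 ± 2.06 in HOXA5 short cells. ITGB6 (NM_000888) gave 2.11 ± 1.72 and 6.08 ± 1.95. ITGB8 (NM_002214) gave 5.08 and 6.27. The lowest signal counted as well above background was 7.74 in mock and 7.996 in HOXA5 short cells, so all 3 signals lay under that limit. Each gene had 1 probe in 1 spot, and a signal under the limit does not show that the transcript was absent. Of the ITGAV partners that activate transforming growth factor beta, neither was above background.

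Read as receptors, 6 pairs of known partners had both chains compared. The beta chain had the higher scaled difference in all 6, by 0.14 (ITGA6 with ITGB4) to 0.39 (ITGAV with ITGB5). The gap exceeded the SD of a single spot in 3, or in 4 with the SD of 0.19. That SD is for a single gene, while a gap holds the error of both genes, measured in unlike numbers of spots. The counts of 3 and 4 therefore do not show which gaps exceeded their error. The pairs share chains and are not independent. Because every alpha chain compared lay below every beta chain compared, any pairing of these chains puts the beta chain higher. The count of 6 pairs therefore adds nothing to that order and says nothing about receptors. Among the 7 subunits above background on both arrays, the alpha chains compared lay below the beta chains compared under the 14 settings tried. Another scaling of the arrays or dropping the filter cannot change the order of these subunits, so those settings are no check of it. Among brighter probes, ITGA5 and ITGB1 were not compared. The distance between the kinds was small in some settings: with the local mean subtracted, ITGA3 was at -0.01 and ITGB1 at 0.02. Over all 10 members the order cannot be told. Without the filter on dim probes, ITGA2 came above ITGB1, ITGB4 and ITGB8, but ITGA2 and ITGB8 were not above background. The scanner errors of their log2 differences were 1.865 and 0.633. The place of the whole set depended on the processing. Relative to the median of all genes, the median of the 7 subunits was -0.11, and it went to 0.03 under normexp and to -0.004 with the local mean subtracted. With the arrays scaled to 7 RNA spike-ins, RNAs added in known amounts when the samples are labeled, the median of all genes moved by 0.46 and all 7 subunits were above 0, from 0.15 for ITGAV to 0.54 for ITGB5. Relative to the median of all genes, ITGAV stayed between -0.33 and -0.15 over the settings, ITGA6 between -0.21 and -0.08 and ITGA5 between -0.23 and -0.01. ITGB5 stayed between 0.10 and 0.19 and ITGB1 between 0.01 and 0.14, while ITGA3, from -0.12 to 0.03, and ITGB4, from -0.05 to 0.13, crossed 0.

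**Figure D3:**
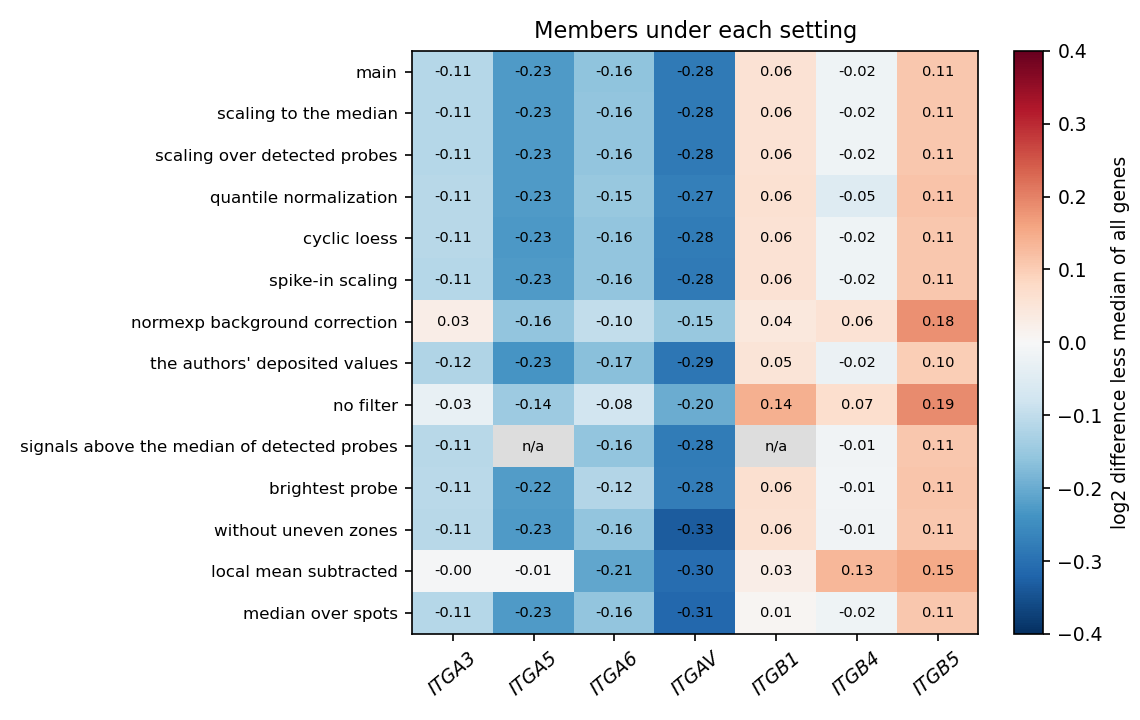
Each cell gives the log2 difference, HOXA5 short minus mock, of 1 subunit (column) less the median of all genes, under 1 setting of the processing (row), and n/a marks a subunit that did not pass the filter. ITGAV lies below the median of all genes in each row (-0.33 to -0.15) and ITGB5 above it (0.10 to 0.19).

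The genes that work with these receptors were taken as 8 lists of 120 genes in all, of which 85 were compared. Among them 0 passed 2-fold upward and 1 downward, beside 0.642% and 0.258% of all genes, and their median was 0.05. The exception was ITGB7, the beta chain of leukocyte integrins that bind mucosal and endothelial ligands, at 21.4 ± 2.64 in mock and 11.8 ± 2.04 in HOXA5 short cells, a scaled difference of -1.17. None of the 20 measured spots around it differed 2-fold. It rested on 1 spot with a signal in the dim range. Of the 16 other integrin subunits 3 were compared, and ITGAE (-0.03), whose chain pairs with that of ITGB7 to bind E-cadherin, and ITGA7 (-0.18), a laminin receptor chain, were the other two.

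Among the ligands, 13 of 19 laminin and basement membrane genes were compared, with a median of 0.02. Of these, 7 were above 0 and 6 below, beside 54.5% of all genes below 0. They ran from COL4A5, a basement membrane collagen chain, at -0.44 to LAMA5, a laminin chain, at 0.25, whose spot lay in an uneven zone. Of 22 other ligands 10 were compared, with a median of 0.12, from THBS1 (thrombospondin) at -0.22 to CCN1, a matricellular protein, at 0.34.

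Inside the cell, 15 of 16 talin, kindlin and actin linkers were compared, with 10 above 0 and a median of 0.15. They ran from FLNA (filamin A, an actin crosslinker that binds beta chain tails) at -0.58, where the surrounding spots averaged -0.35, to TNS1 (tensin) at 0.44. Of 21 focal adhesion signaling genes 20 were compared, of which 16 were above 0, with a median of 0.06, from LIMS2, an adaptor bound to integrin-linked kinase, at -0.34 to CRKL, an adaptor protein, at 0.53. Both lists had genes on either side of 0, with 5 and 4 below it, beside 54.5% of all genes compared. The medians of all genes and of the 7 integrin subunits were -0.02 and -0.13.

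Of the 4 hemidesmosome partners of ITGB4, 3 were compared and 0 passed 2-fold. All 3 were below 0, as were 54.5% of all genes, with a median of -0.28 that went to -0.06 under the other background correction. They ran from DST, a plakin gene, at -0.52 to CD151, the tetraspanin of laminin-binding integrins, at -0.16. The value of DST rests on 2 of its 4 probes, at -0.72 and -0.32 and with signals of at most 37.9, and the other two, for another of its transcripts, were not above background. The plakin gene PLEC, named as the remaining one, was at -0.28, and CD151 was within the SD of a single spot.

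Of 10 genes of integrin inactivation and traffic 9 were compared, with a median of -0.03, from SNX17, a sorting nexin that recycles beta chains, at -0.22 to SHARPIN, an integrin inactivator, at 0.24. The probes of SHARPIN differed, at 0.48 and 0.00. RAB4A, a GTPase of rapid recycling, was detected on the HOXA5 short array only and was at least 7.84-fold higher there, but 10 of the 16 measured spots around it differed 2-fold or more. All 12 membrane partners were compared, with a median of 0.09. Of these, 9 were above 0 and 3 below, beside 54.5% of all genes below 0. The highest was SDC4 (syndecan 4, a co-receptor for fibronectin), at 0.53, where the 13 measured spots around it averaged 0.29. The lowest was CAV1 (caveolin 1), at -0.41. Of the 10 copies of 1 of its probes, 3, from -2.31 to -1.78, stood apart from the other 7, from -0.17 to 0.04. The measured spots around these 3 averaged -0.41, -1.10 and -1.79, and the median of the 10 copies was -0.06.

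**Figure D4:**
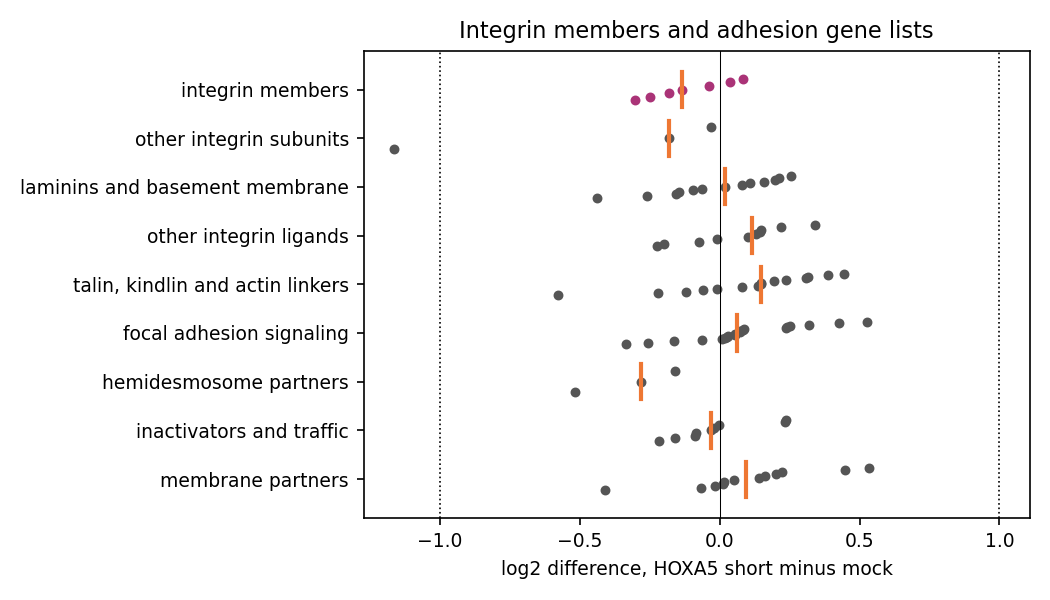
Each point is a gene compared, placed by its log2 difference, HOXA5 short minus mock, in the row of its list, with the integrin subunits on top, the median as an orange bar and 2-fold as dotted lines. The medians run from -0.28 for hemidesmosome partners to 0.15 for talin, kindlin and actin linkers, and ITGB7 (-1.17) is the only gene past 2-fold.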

How the data were processed

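Total RNA (400 ng) of HCT116 cells was labeled with Cy3 and measured on 1 Agilent SurePrint G3 human array per group. Groups were taken from the sample titles and the genotype label. Both samples share a protocol text that names the HOXA5 short vector. Per the file headers, the authors quantified spots with Feature Extraction 11.5.1.1, and the deposited intensity of a spot is its background-corrected processed signal. A further deposited file holds log2 values (19461 rows) that gave the same member differences. It was used as an alternative.

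The log2 signal was averaged over the spots of a probe, without flagged outliers, and the 75th percentile of all non-control probes on that array was subtracted. Each array held 50599 such probes, and 18422 (36.4%) for mock and 18953 (37.5%) for HOXA5 short were well above background, with 17938 on both. No spot was saturated. Passing probes of a gene were averaged. Transcript accessions were matched to RefSeq symbols of GRCh38.p14, which named 59.3% of probes. The array annotation is on hg19, so no probe coordinates are given. A zone was uneven when at least 10% of at least 10 well-measured spots in a 9 by 9 window differed 2-fold. No test was possible with 1 array per group, and this number limits the precision. Scripts were tested on simulated data (Python 3.11.15, limma 3.58.1 in R 4.3.3).

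The members and the gene lists were chosen with earlier results of these data known. The genes named are HOXA5, the members, the highest and lowest gene of each list, list genes past 2-fold or with such a bound, and cell type markers, with 2 others (ITGA7 and PLEC). The spot SD with outliers included, the count of spike-ins and the choice of promoter start were revised after values had been seen. The alternatives were other scalings (median, detected probes, spike-ins), quantile and cyclic loess normalization, normexp (offset 50, on median foreground), the deposited log2 values, other filters, the brightest probe, 1.5-fold, and the 2 grid corrections.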

Additional observations from a re-analysis of the deposited data

How the results depend on the processing

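No paired analysis was possible because each group was 1 array. The count of subunits past 2-fold was 0 under every setting except the one without a filter on dim probes, where it was 1 (ITGB6, which was not above background on either array). The median of the subunits was -0.13 and became 0.32 with spike-in scaling, or 0.28 when 8 spike-ins with any detected spot were used. It was 0.06 under normexp and -0.01 with the local mean subtracted. The median of the other integrin ligands was 0.12 and became -0.17 without the filter, which raised the genes from 10 to 22. The other 49 values for the set and the lists moved by less than the SD of a single spot (0.26), or kept their count. Some of the 49 could not move, such as the count of subunits detected on 1 array only, which no scaling changes. The SD of a single spot is also not the error of a median over genes. With the SD of 0.19 that leaves out outliers, the move of the hemidesmosome partners from -0.28 to -0.06 under normexp would also count. For single subunits, 82 values moved by less than 0.26, and the 7 that moved more were those of spike-in scaling. Many of the 82 could not move, since a filter or a choice of probe or spot leaves a gene with 1 spot unchanged. Another scaling moves every gene by the same amount. The count of 82 is therefore no check of the single values. Scaling to the median moved all genes by 0.10. The number of genes at least 2-fold higher and lower was 77 and 31, and became 389 and 8 with spike-in scaling, 37 and 8 under normexp, 216 and 108 in the deposited log2 values, 447 and 566 without the filter, 35 and 14 among brighter probes, 48 and 20 without uneven zones, 47 and 16 with the local mean subtracted, and 108 and 20 with scaling to the median. The median over spots, chosen after seeing the data, gave -0.34 for ITGAV and -0.01 for ITGB1. The cause of these moves was not tested.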
